A study of Mus musculus with 6 samples.

Results

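The histone genes of mouse B cells were examined as 2 classes, the replication-dependent genes and the replacement variants. Members were chosen by symbol alone. Symbols of the form Hist1h to Hist4h made up the replication-dependent class, with 70 genes, and symbols beginning with H2af or H3f3 made up the replacement class, with 17 genes. Together they were 87 of the 41669 gene symbols in the deposited table. The annotation calls 67 of the 70 and 11 of the 17 protein-coding. The rest are 3 replication-dependent pseudogenes, 5 replacement pseudogenes, and H3f3aos, which lies antisense to H3f3a.

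The RNA came from B cells of the spleen of NZB/W F1 mice, 3 females and 3 males of a hybrid strain whose disease resembles human lupus. All 6 mice were at a late stage of the disease, and each library came from a separate mouse; no age is given in the sources used here. The cells had been enriched on a column by positive selection and kept for 24 h in culture with CpG, which activates B cells through Toll-like receptor 9. Every library was therefore from stimulated cells of diseased mice, and the comparison the design names is females over males.

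A nucleosome wraps DNA around a core of the histones H2A, H2B, H3 and H4, and linker histones of the H1 family bind where the DNA enters and leaves. Replication-dependent genes lie in clusters and are switched on in S phase to package new DNA, and their main mRNAs are not polyadenylated. Instead, these mRNAs end just after a short RNA stem-loop that is bound by Slbp, the stem-loop binding protein, and cut with the help of the U7 small nuclear RNA. Replacement variants such as H3.3 and H2A.Z are made throughout the cell cycle from ordinary polyadenylated mRNAs and enter chromatin through dedicated chaperones.

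The 3′ ends are shown first because the levels below were sorted by them. The stem-loop was searched as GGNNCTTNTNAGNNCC with complementary NN letters, a stem of 6 base pairs and a loop of 4 bases. The search used the sense strand of every GENCODE M21 transcript (GRCm38), and capitals mark the 16 bases of the stem-loop. Hist1h1c, Hist1h4i and Hist4h4 are members with reads, H2afx is the single replacement member with the element, and Hist1h3b and Hist2h2ac were at 0 in all 6 libraries.
Hist1h1c, chr13:23739507-23739532, plus strand: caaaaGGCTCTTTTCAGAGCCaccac
Hist1h4i, chr13:22040961-22040986, minus strand: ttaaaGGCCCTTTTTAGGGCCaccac
Hist4h4, chr6:136803993-136804018, minus strand: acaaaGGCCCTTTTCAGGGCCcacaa
H2afx, chr9:44335235-44335260, plus strand: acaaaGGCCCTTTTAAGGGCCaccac
Hist1h3b, chr13:23752815-23752840, plus strand: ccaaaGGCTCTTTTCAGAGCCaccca
Hist2h2ac, chr3:96220413-96220438, minus strand: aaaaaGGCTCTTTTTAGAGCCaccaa

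The stem-loop was in 46 of 70 replication-dependent genes (65.7%) and in 1 of 17 replacement genes (5.88%). It was in 14 of the 55254 other genes of the annotation (0.0253%), and the pattern with 1 mismatch allowed found the same numbers of members. All 46 lay after the stop codon. The form GGCTCTTTTCAGAGCC was shared by 26 genes of H1, H2A, H2B and H3. H4 genes used other stems, with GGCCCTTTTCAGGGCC in 7 of them and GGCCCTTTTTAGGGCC and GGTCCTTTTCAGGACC in 2 each. No match says only that these letters are not in the annotated transcripts: 13 replication-dependent genes without one have models that stop at the stop codon.

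The second element was a poly(A) signal, searched as AATAAA or ATTAAA on the sense strand within the last 50 bases of any annotated transcript, a window chosen after the values were seen. Capitals mark it in a linker histone gene, an H2B gene and an H4 gene that carried reads, and in the replacement genes H2afz and H3f3b.
Hist1h1c, chr13:23740332-23740357, plus strand: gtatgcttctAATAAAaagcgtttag
Hist2h2be, chr3:96223707-96223732, plus strand: tattattattAATAAAgttaccgatt
Hist1h4i, chr13:22040641-22040666, minus strand: ttctgtttacATTAAAagtattctat
H2afz, chr3:137866887-137866912, plus strand: ctgcttactaATTAAAcagtgcatct
H3f3b, chr11:116021989-116022014, minus strand: aggccttacaAATAAActagtaagtt

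A signal was found in 17 of 70 replication-dependent genes (24.3%) and in 8 of the 11 protein-coding replacement genes (72.7%), against 80.9% of the other protein-coding genes. Hist1h1c and Hist1h4i thus carry both elements, with 840 and 330 annotated bases between the stem-loop and the transcript end. Hist2h2be has a signal and no stem-loop match.

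The libraries summed to 24089561 to 35659883 estimated counts, and 3 counts corresponded to 0.0841 to 0.125 CPM, the estimated count scaled to a common library total. Female replicate 3 stood apart. On the first principal component (50.8% of the variance) it scored 94.2, and the others lay between -47.9 and 6.66. Genes in the lowest quartile of transcript length had a median deviation from the other libraries of -0.56 log2 units in it. B cell markers summed to 2273 to 2488 CPM in females and 2317 to 2519 CPM in males, with 8 of 8 at a mean of at least 1 CPM. T and NK markers summed to 9.64 to 20.5 CPM in females and 11.9 to 25.3 CPM in males, with Ncr1 and Nkg7 at 0. Myeloid markers summed to 4.12 to 9.06 CPM in females and 1.39 to 2.64 CPM in males. Of these, 11 of 11 were above 0 in some library and 2 of 11 had a mean of at least 1 CPM. Erythroid markers (Hba-a2 at 0) summed to 0.718 to 2.38 CPM in females and 0.0495 to 0.495 CPM in males. Plasma cell markers (Tnfrsf17 at 0) summed to 279 to 488 CPM in females and 275 to 318 CPM in males. Xist, Ddx3y, Eif2s3y and Kdm5d were called by edgeR in the direction of the labelled sex. The marker genes with the smallest p were Pax5 (B cells), Igj and Prdm1 (plasma cells), Cd3d and Cd247 (T and NK cells) and Lyz2 and Spic (myeloid cells); edgeR called none of them, and DESeq2 called Igj, Prdm1, Lyz2 and Spic.

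Replacement genes were far above replication-dependent genes in every library. In the females the 17 replacement genes summed to 3163, 3190 and 3827 CPM, and in the males to 3636, 2976 and 3373 CPM. The 70 replication-dependent genes summed to 16.3, 10.4 and 12.8 CPM in the females and to 18.6, 31.4 and 17.7 CPM in the males. The ratio of replacement over replication-dependent sums was 194.4, 305.3 and 298.3 in the females and 195.4, 94.6 and 190.4 in the males. Male replicate 2 had the lowest ratio. Taken per kb of the longest annotated transcript, the ratio was 90.4 to 280.4 over the 6 libraries. On the log2 scale the CPM ratio was 8.03 ± 0.37 in females and 7.25 ± 0.59 in males (SD, n = 3 each). In these bulk samples, fewer cells in S phase and less RNA per cell cannot be told apart. Whether RNA was selected by its poly(A) tail before sequencing is not given in the sources used here, and its part in this ratio was not tested.

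**Figure D1:**
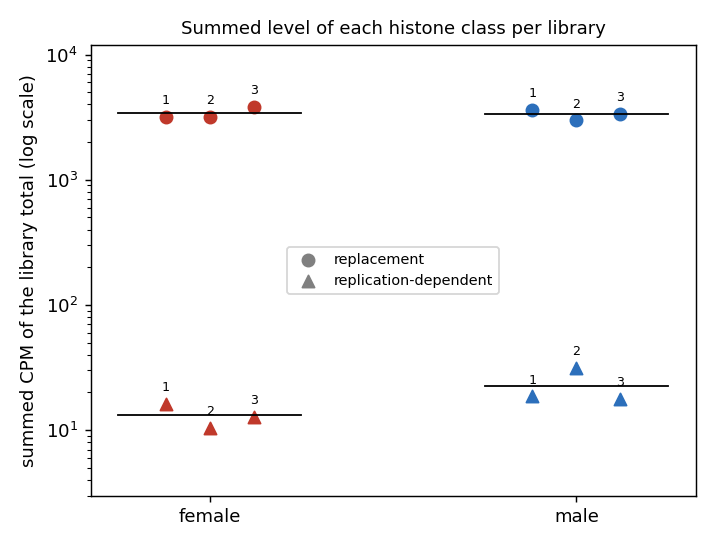
Summed CPM of the library total (log scale) of the replacement genes (circles) and the replication-dependent genes (triangles) in each library, females left and males right. Numbers are replicates and lines are means of 3; the replacement sums lie between 2976 and 3827 CPM and the replication-dependent sums between 10.4 and 31.4 CPM.

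The classes also differed in the share of members with at least 3 counts in every library. Of the replication-dependent genes 34 of 70 (48.6%) were at 0 in all 6 libraries, 9 had at least 3 counts in every library (12.9%) and 5 reached a mean of 1 CPM (7.14%). Of the replacement genes 5 of 17 (29.4%) were at 0 throughout, namely the pseudogenes H2af-ps and H3f3a-ps2 and the genes H2afb1, H2afb2 and H2afb3. At least 3 counts in every library were seen for 8 replacement genes (47.1%), and 8 (47.1%) reached a mean of 1 CPM. Over all genes of the table, 51.1% were at 0 throughout, so the replication-dependent share at 0 was near that of all genes. Of all genes, 28.5% had at least 3 counts in every library and 24.3% reached a mean of 1 CPM.

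Among the replacement genes 3 carried nearly all reads. H2afz, which encodes the promoter-associated variant H2A.Z (chr3:137864487-137866922), had 1266, 1307 and 1560 CPM in females and 1485, 1119 and 1351 CPM in males. H3f3b (chr11:116021912-116027962), one of the genes for H3.3, had 899, 930 and 1187 CPM in females and 991, 896 and 934 CPM in males. H3f3a (chr1:180800832-180813943), which encodes the same H3.3 protein, had 826, 859 and 1002 CPM in females and 1014, 853 and 952 CPM in males. The sexes overlapped for all 3, and together these genes made up 94.6 to 98.0% of the replacement sum.

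Per kb of transcript, H2afz averaged 1261 CPM per kb, rank 24 of 39227 genes with a length. H3f3b averaged 387 CPM per kb (rank 95) and H3f3a 323 CPM per kb (rank 133). H3f3b was above H3f3a per kb in each library, by 1.10 to 1.34-fold. Only 22.2% of the 31-base words of the longest H2afz transcript occur in no other gene, against 86.4% for H3f3b and 68.5% for H3f3a, so reads of H2afz more often match other copies of its sequence and its level is less certain.

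The other H2A variants were lower. H2afy encodes macroH2A1, a variant enriched on the inactive X chromosome, and it had 135, 73.0 and 64.1 CPM in females and 108, 79.7 and 99.3 CPM in males. H2afx encodes H2A.X, which is phosphorylated at DNA breaks, including those of antibody class switching, and had 19.1, 11.9 and 7.04 CPM in females and 22.0, 11.3 and 21.6 CPM in males. Both genes had female and male libraries interleaved, and female replicate 3 was the lowest library for each.

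H2afj, the gene for the variant H2A.J, had 5.74, 7.09 and 4.32 CPM in females and 7.58, 12.7 and 7.44 CPM in males. All females lay below all males for H2afj. H2afv, which encodes a second form of H2A.Z, had 6.06, 1.66 and 1.74 CPM in females and 4.90, 2.46 and 6.32 CPM in males, and the sexes overlapped. Per kb, H2afz was 319 to 1368 times H2afv in the 6 libraries. H2afy2, the gene for macroH2A2, averaged 0.0769 CPM and had under 3 counts in 5 of 6 libraries.

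H3f3c, annotated as a processed pseudogene of H3.3, had 5.17, 0 and 0 CPM in females and 1.72, 1.08 and 0.591 CPM in males. It is uncertain, since only 8.66% of its 31-base words occur in no other gene. H3f3aos averaged 0.475 ± 0.285 CPM in females and 0.485 ± 0.127 CPM in males (SD, n = 3 each). It overlaps H3f3a on the opposite strand, and no source used here says whether reads were counted by strand, so reads of the overlap may not be told apart. H2afb1, H2afb2 and H2afb3, genes of a testis variant, were at 0 in all 6 libraries.

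Among the replication-dependent genes, 1 H2B gene stood highest by CPM. Hist2h2be (chr3:96221119-96223738) had 5.28, 3.75 and 3.67 CPM in females and 5.98, 10.5 and 6.03 CPM in males, which was 28.6 to 35.9% of the class sum. The H2B gene Hist1h2be had 2.11, 0.739 and 1.30 CPM in females and 1.91, 3.57 and 2.43 CPM in males. Its annotated span (chr13:23583670-23621124) overlaps the end of Hist1h1e on the same strand, so the split of reads between them is uncertain. Hist1h2bc had 0.0413, 0.203 and 0.254 CPM in females and 0.451, 0.617 and 0.420 CPM in males. For both Hist2h2be and Hist1h2bc each female library lay below each male library, and male replicate 2 was the highest for all 3 H2B genes.

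Among the H4 genes Hist1h4i was the highest. Hist1h4i (chr13:22040636-22041362) had 2.35, 1.70 and 1.46 CPM in females and 2.67, 1.78 and 2.13 CPM in males. Hist4h4 (chr6:136801553-136804415), which lies apart from the main clusters, had 0.582, 0.265 and 0.899 CPM in females and 0.588, 0.567 and 0.681 CPM in males. Hist1h4j had 0.537, 0.237 and 0.262 CPM in females and 0.254, 0.871 and 0.480 CPM in males. Females and males overlapped for each of these H4 genes. Per kb, Hist1h4i was the highest replication-dependent gene at 2.77 CPM per kb, above Hist2h2be at 2.24 CPM per kb.

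The linker histone gene Hist1h1c, which encodes H1.2 (chr13:23738808-23740367), had 0.949, 0.915 and 0.848 CPM in females and 1.43, 5.01 and 1.44 CPM in males. All females were below all males, and male replicate 2 stood above the other males. Hist1h1d, the gene for H1.3, had 0.248, 0.0680 and 0.566 CPM in females and 0.255, 0.767 and 0.542 CPM in males, with the sexes overlapping.

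Hist3h2a, an H2A gene (chr11:58954685-58956830), had 1.28, 1.05 and 1.30 CPM in females and 2.09, 2.87 and 1.32 CPM in males. The sexes did not overlap, but female replicate 3 at 1.30 and male replicate 3 at 1.32 CPM were next to each other, and Trim17 overlaps this gene on the same strand. Hist1h2ae, another H2A gene, had 0.413, 0.203 and 0.480 CPM in females and 0.471, 0.181 and 0.240 CPM in males, interleaved.

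Of the H3 genes, Hist2h3c1 had 0.650, 0.601 and 0.501 CPM in females and 0.689, 0.786 and 0.562 CPM in males. None of its 31-base words is unique to it, and the Gm20634 model overlaps it on the same strand. Hist1h3e had 0.330, 0.102 and 0.159 CPM in females and 0.254, 1.40 and 0.180 CPM in males, and 15.6% of its words were unique. The sexes overlapped for both, male replicate 2 stood above all other libraries for Hist1h3e, and that gene did not pass the filter for the test.

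**Figure D2:**
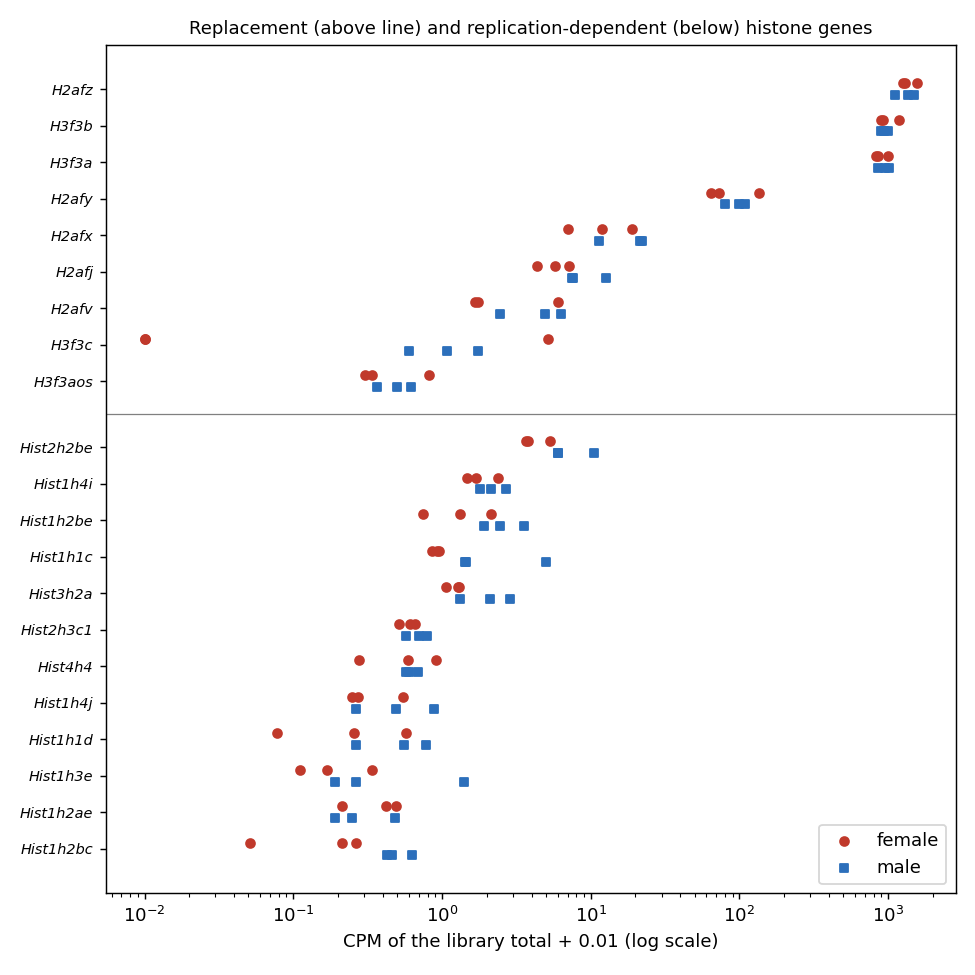
CPM of the library total plus 0.01 (log scale) for the 9 replacement genes that passed the low-count filter (above the line) and the 12 replication-dependent genes with the highest mean (below it). Each point is 1 library, red circles females and blue squares males; H2afz, H3f3b and H3f3a lie between 826 and 1560 CPM, and no replication-dependent gene exceeds 10.5 CPM.

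Summed by the histone they encode, the genes of all 5 kinds were low. H2B genes summed to 6.28 ± 1.70 CPM in females and 11.5 ± 3.66 CPM in males, and H4 genes to 2.91 ± 0.701 CPM in females and 3.55 ± 0.106 CPM in males (SD, n = 3 each). H2A genes summed to 1.75 ± 0.251 CPM in females and 2.80 ± 1.00 CPM in males, and H1 genes to 1.31 ± 0.255 CPM in females and 3.21 ± 2.28 CPM in males. H3 genes summed to 0.933 ± 0.167 CPM in females and 1.57 ± 0.997 CPM in males. By position, the 56 genes on chromosome 13 held 45.7 to 52.4% of the class sum and the 10 genes on chromosome 3 held 32.8 to 41.7%.

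The reads of the replication-dependent class lay almost wholly in genes whose annotated transcripts run on past the stem-loop or carry a poly(A) signal. The 17 genes with a signal held 85.6 to 92.2% of the class sum in the 6 libraries, and 14 of the 17 had counts, against 22 of the 53 without one. Genes with counts include those with under 3 counts in every library. Of the 9 genes with at least 3 counts in every library, 9 had a signal. The 3 genes with a signal and no counts were Hist1h1t, Hist1h4h and Hist3h2ba; Hist1h1t is the testis linker histone.

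A similar split followed the annotated tail after the stem-loop. The 23 genes with at least 100 annotated bases after it summed to 8.38 ± 2.13 CPM in females and 13.9 ± 4.67 CPM in males, and 20 of them had counts. The 23 genes with 3 to 74 such bases summed to 0.202 ± 0.111 CPM in females and 0.271 ± 0.158 CPM in males (SD, n = 3 each). Counts were present in 9 of these short-tail genes, and the highest of them, Hist1h2ao, averaged 0.0945 CPM. At least 3 counts in some library were reached by 2 of the short-tail genes and by 16 of the long-tail genes. Per kb the means over 6 libraries were 8.50 CPM per kb for the long-tail sum and 0.453 CPM per kb for the short-tail sum.

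The limit of 100 bases was chosen after the values were seen. Just under it were Hist2h2ac with 57 bases and 0 CPM and Hist1h3c with 74 bases and a mean of 0.0104 CPM. Just over it were Hist1h4a with 108 bases and a mean of 0.0306 CPM and Hist1h2ae with 151 bases and a mean of 0.332 CPM. With a limit of 200 bases the genes under it summed to a mean of 0.891 CPM over the 6 libraries, against 0.237 CPM with the limit of 100.

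Length and sequence uniqueness moved with the tail. The median longest transcript was 1249 bases in the long-tail genes and 485 bases in the short-tail genes, and the median share of unique 31-base words was 70.6% in the long-tail genes and 32.8% in the short-tail genes. Among genes with under 50% unique words, the 5 long-tail genes summed to 1.38 CPM per kb and the 20 short-tail genes to 0.362 CPM per kb. Among genes with at least 50%, the 18 long-tail genes summed to 7.12 CPM per kb and the 3 short-tail genes to 0.0912 CPM per kb. The part of uniqueness in the split was not tested.

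**Figure D3:**
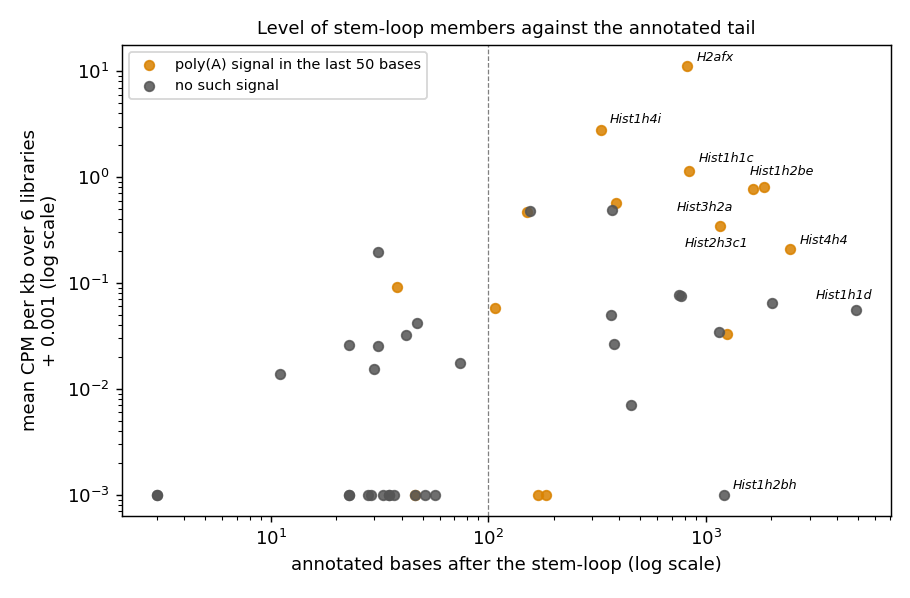
Mean CPM per kb over 6 libraries plus 0.001 (log scale) of the 47 genes with a stem-loop match, H2afx included, against the annotated bases after the stem-loop (log scale). Orange points have a poly(A) signal in the last 50 bases, and the dashed line marks 100 bases; short-tail genes do not exceed 0.197 CPM per kb, while Hist1h4i reaches 2.77 and H2afx 11.2 CPM per kb.

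The remaining members fall outside that split. Of the 24 genes without a stem-loop match, 8 have annotated bases after the stop codon and held 32.7 to 39.5% of the class sum, nearly all of it in Hist2h2be. The 13 genes whose models end at the stop codon were at 0 in 11 cases, and the exceptions were Hist1h1b and Hist2h2bb. The 3 pseudogenes were at 0.

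Genes that act in S phase or on histone mRNA were present at the same time. All 28 S phase genes of the list exceeded a mean of 1 CPM, with a median of 31.9 CPM per kb and a range of 1.38 CPM per kb for Tk1, thymidine kinase, to 777 CPM per kb for Pcna, the replication clamp. Of the 28 S phase genes 0 reached the level of H2afz per kb. Below Hist1h4i, the highest replication-dependent gene per kb, lay 3 of them (Cdt1, E2f1 and Tk1). In the list for histone mRNA processing and decay, Slbp was the highest of the 19 genes with a length, at 190 CPM per kb. The median of that list was 16.04 CPM per kb, and its lowest gene was Cpsf1 at 0.416 CPM per kb. Its genes below Hist1h4i were Cpsf1, Zfp473 (0.729 CPM per kb), Lsm10 (1.39), Lsm11 (1.54), Sympk (2.07) and Upf1 (2.48).

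Females and males were compared by edgeR's quasi-likelihood test over 12172 genes, of which 7 (0.0575%) were called at an FDR of 0.05. No member was called: 0 of 12 tested replication-dependent genes and 0 of 9 tested replacement genes in edgeR. Of the members tested in each of 13 alternatives to it, whose number changed with the filter and the libraries, none was called either. At an unadjusted p under 0.05 edgeR had 1 of 12 replication-dependent genes and 0 of 9 replacement genes (2.89% of all genes), DESeq2 had 2 and 0, and limma-voom had 0 and 0. The adjusted p of all 21 tested members was 0.999 in edgeR.

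Of the 12 replication-dependent genes tested, 10 had a negative log2 fold change (female over male), with a median of -0.56, and 49.9% of all genes tested were negative, with a median of 0.00. Of the 9 replacement genes tested, 3 were negative, with a median of 0.07, and H2afj alone had every female library below every male library on both scales. The 12 are the members that passed the low-count filter, and 58 replication-dependent members were not tested. That filter asks for enough counts in 3 libraries, so a gene can pass through 1 sex alone. Hist1h2bc, at 0.0413 to 0.254 CPM in females and 0.420 to 0.617 CPM in males, could pass through the males only. The filter thus favoured a negative sign for Hist1h2bc. It is counted in the 10, in the median and in the non-overlapping genes below. Of these 12 genes 4 had every female library below every male library in CPM, namely Hist1h1c, Hist1h2bc, Hist2h2be and Hist3h2a, against 7.55% of all genes tested; with TMM scaling Hist3h2a dropped out and the background was 4.57%. In the opposite direction there was none, against 2.69% of all genes tested (4.41% with TMM scaling). Male replicate 2 was the highest library for 8 of the 12 and for 1 of the 9 replacement genes. How often it was the highest over all genes tested was not counted.

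The 1 gene at an unadjusted p under 0.05 was Hist1h1c, with a log2 fold change of -1.39 ± 0.57 (SE; edgeR adjusted p = 0.999). Without male replicate 2 it was -0.53, so its size rests on that library. For Hist2h2be the log2 fold change was -0.70 ± 0.32 (SE; edgeR adjusted p = 0.999), and -0.38 without that library. Hist1h2bc had -1.31 ± 0.67, Hist1h2be -0.81 ± 0.47 and Hist3h2a -0.64 ± 0.41 (log2 fold change ± SE). H4 gave -0.14 ± 0.34 for Hist1h4i and 0.10 ± 0.56 for Hist4h4. Among these, Hist3h2a had -0.34 without male replicate 2, Hist1h2be -0.49 without female replicate 2, Hist1h2bc -0.86 without female replicate 1 and Hist4h4 -0.56 without female replicate 3. None of these genes was called by edgeR after adjustment over all 12172 tested genes.

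Replacement genes had log2 fold changes of 0.23 ± 0.22 for H2afz, 0.27 ± 0.22 for H3f3b and 0.09 ± 0.20 for H3f3a (SE). Without female replicate 3 these were -0.01, -0.02 and -0.14, so the positive signs rest on that library. H2afy had 0.02 ± 0.24, H2afx -0.45 ± 0.36, H2afv -0.46 ± 0.56 and H2afj -0.57 ± 0.31. Without female replicate 1, H2afy had -0.27, H2afx -0.76 and H2afv -1.19; H2afv had -0.14 without male replicate 3, H2afx -0.24 without female replicate 3, and H2afj -0.27 without male replicate 2. H3f3c had 0.56 ± 1.61, and -8.07 without female replicate 1, the single female library with counts. None was called by edgeR.

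**Figure D4:**
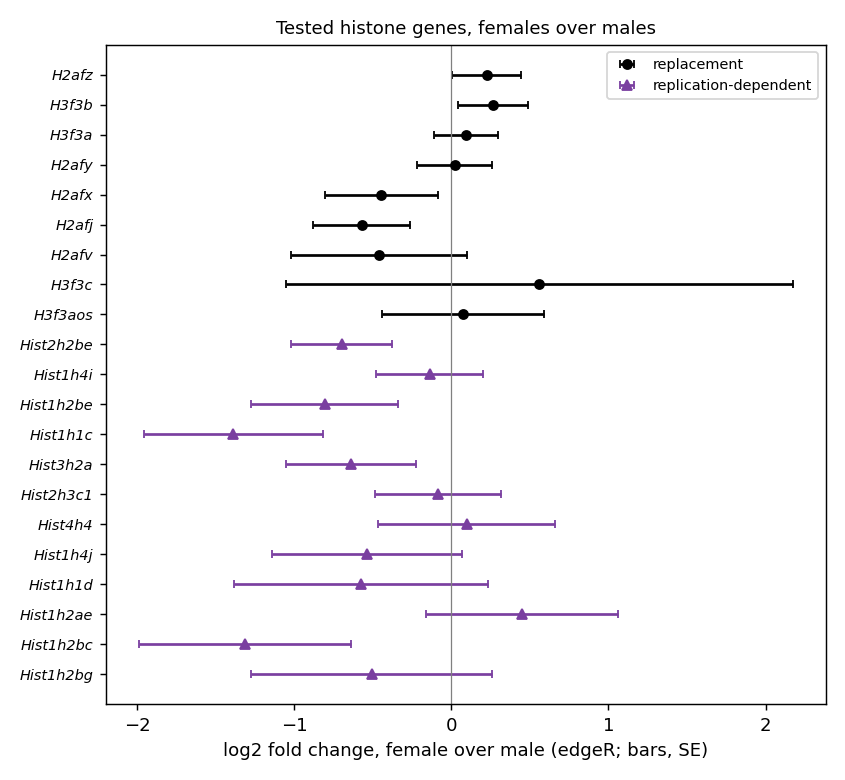
Log2 fold change of females over males from edgeR for the 9 tested replacement genes (circles) and the 12 tested replication-dependent genes (triangles); bars are SE. Replication-dependent genes lie mostly left of 0, with a median of -0.56, and replacement genes around a median of 0.07; none was called. Hist1h2bc, left of 0, could pass the low-count filter through the males only.

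The sums over all members of a class are a description, with no test. Replication-dependent genes averaged 13.2 ± 2.93 CPM in females and 22.6 ± 7.68 CPM in males, and replacement genes 3394 ± 376 CPM in females and 3328 ± 332 CPM in males (SD, n = 3 each). The highest female sum of the replication-dependent class, 16.3 CPM, lay under the lowest male sum, 17.7 CPM. With TMM scaling these were 15.7 and 17.0 CPM, but per kb the sexes overlapped, with female replicate 1 at 11.7 and male replicate 3 at 11.2 CPM per kb. Without male replicate 2 the male mean was 18.2 ± 0.635 CPM (SD of replicates 1 and 3). Without female replicate 3 the female mean was 13.4 ± 4.12 CPM (SD of replicates 1 and 2). Myeloid and erythroid marker sums, given above, were higher in every female library than in every male library. Of their members Lyz2, Spic and Hbb-bs had this pattern, but the sexes overlapped for Itgam, Csf1r, Mpo and Alas2. Klf1 went the other way, with means of 0.0138 CPM in females and 0.0448 CPM in males. The plasma cell gene Igj was also higher in every female library, with 37.7, 48.4 and 48.2 CPM in females and 17.1, 17.0 and 18.3 CPM in males. So was Prdm1, with 22.1, 61.5 and 22.9 CPM in females and 11.7, 12.8 and 12.9 CPM in males. The sexes overlapped for the plasma cell marker sum and for the other plasma cell genes with counts. Their means in females and males were 164 and 120 CPM for Irf4, 105 and 114 CPM for Xbp1, 2.20 and 2.37 CPM for Sdc1, and 29.4 and 30.2 CPM for Mzb1. The part of these markers in the sums of the histone classes was not tested.

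The genes that process histone mRNA or carry histones into chromatin were divided between the directions. Of 20 tested genes for histone mRNA processing and decay, 10 were negative, with a median log2 fold change of 0.01, and edgeR called 0, with 1 at an unadjusted p under 0.05. That gene was Zfp473, whose product binds the Slbp complex, at -0.68 ± 0.28, and Casp8ap2, a histone pre-mRNA processing factor, had 0.31 ± 0.16 (SE). Of 29 tested chaperone and exchange genes 17 were negative, with a median of -0.03, and edgeR called 0, with 0 at an unadjusted p under 0.05. The smallest p there were those of Anp32e, which removes H2A.Z from chromatin, at 0.41 ± 0.20, and Hjurp, the chaperone of the centromeric H3 variant, at -0.30 ± 0.16.

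Of the 28 S phase genes 17 were negative, with a median log2 fold change of -0.04, and edgeR called 0, with 0 at an unadjusted p under 0.05. Rfc3, a subunit of the clamp loader, had -0.26 ± 0.16, and Gins2, of the replicative helicase complex, had 0.32 ± 0.22 (SE). Of the other histone genes in the table only Cenpa, the centromeric H3 variant, and H1f0, the linker histone H1.0, passed the filter, at -0.06 ± 0.39 and -0.05 ± 0.45. DESeq2 and limma-voom also called 0 genes of these 4 lists, with 1 at an unadjusted p under 0.05 in each, in the list for histone mRNA processing and decay.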

How the data were processed

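The authors deposited 1 table of estimated counts per gene symbol, not scaled to a common depth. The submitters' processing notes name kallisto, DESeq2 and GRCm38.p6; no version, annotation, setting or library selection is given in the sources used. Library totals ran from 24089561 to 35659883, and floors of 3 counts cover counting error only. Estimated counts were rounded to whole numbers for the tests.

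CPM is the estimated count divided by the library total of all symbols; CPM per kb divides it by the longest GENCODE M21 transcript (GRCm38). Stem-loops, poly(A) signals and unique 31-base words were read from the GENCODE M21 transcripts by exact match. Females were compared with males in edgeR 4.0.16 (filterByExpr by sex, TMM, glmQLFit, glmQLFTest, R 4.3.3) over 12172 genes, with Benjamini-Hochberg adjustment at 0.05 over all of them; the biological coefficient of variation was 0.351. The test was checked on simulated data. Standard errors are the absolute log2 fold change over the root of F. Figures were drawn with matplotlib 3.10.9.

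The alternatives were DESeq2 1.42.0, limma-voom (limma 3.58.1), RLE factors, library totals only, no low-count filter, a filter of 1 CPM in 3 libraries, a replicate block, and leaving out each library. Each library is a separate mouse, and the spread is between mice. The named genes were the replacement members that passed the filter, the 12 replication-dependent members with the highest mean CPM, any called member and, of each list, up to 4 called genes or else the 2 with the smallest p. Of the genes so chosen, 1 uncalled marker gene is not reported here. H2afy2, the H2afb genes, other members at or near 0 and the further plasma cell genes were named after their values were seen. The same holds for the genes of histone mRNA processing and decay that lay below Hist1h4i. The members and lists were chosen with earlier results of these data known.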

Additional observations from a re-analysis of the deposited data

How the results depend on the processing

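No member was called in any of the 13 alternatives to the edgeR fit. Of 265 pairs of a member and an alternative, 243 kept the sign of the log2 fold change and 22 did not, over 10 of the 21 tested members. The number of genes called over the whole table was 35 with DESeq2, 11 with no low-count filter, and 4 to 12 when 1 library was left out (12 without female replicate 1 or 3, and 4 without either male replicate 1 or 2 or without female replicate 2). The median log2 fold change of the tested replication-dependent genes ran from -0.74 to -0.30 when 1 library was left out (-0.30 without male replicate 2). That of the replacement genes ran from -0.35 (without female replicate 1) to 0.17, and was -0.07 with library totals only. Per kb, the replication-dependent sum was 8.98 in females and 14.4 in males, and the replacement sum 2045 in females and 1986 in males; the smaller numbers follow from division by length. Without the highest member of each class, the replication-dependent sum was 8.95 CPM in females and 15.1 CPM in males. The replacement sum was then 2016 CPM in females and 2010 CPM in males.

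The replicate numbers share no stated litter or day. Same-numbered libraries had correlations of their deviations of 0.22, 0.04 and 0.07, and unlike-numbered libraries had -0.21 to 0.12. With 3 libraries per sex, these values cannot decide whether the numbers pair the mice. With the replicate number as a block, 7 genes were called, as without it, and no member was. At these depths a member under 3 counts in a library, 0.0841 to 0.125 CPM, cannot be told from 0, and 58 of 70 replication-dependent members were too low to be tested.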
